A study of Drosophila melanogaster with 10 samples.

Results

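RNA of Drosophila ovarian somatic cells (OSC) depleted of Mael was compared with RNA of control cells, across all genes and then across transposable element (TE) families. The comparison rests on 2 of the 10 libraries of the study, 1 of the Mael knock-down and 1 of the control. Of 13984 genes, 7674 averaged at least 1 RPKM over both libraries (reads per kilobase of sequence and per 1e+06 reads of the library), and of 177 TE entries 113 did. These entered every count. OSC are a cultured line derived from somatic cells of the fly ovary. They were kept at 26 °C, transfected once with siRNA and collected after 2 days, when polyadenylated RNA was sequenced. The Mael cells received siRNA against Mael and the control cells siRNA against EGFP, a jellyfish protein gene foreign to fly cells. The other RNA libraries of the study, with siRNA against Piwi, Armi, CG3893 or HP1a, served only to place values of the Mael library.

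In the ovarian soma of flies, piRNAs bound to the nuclear protein Piwi guide the silencing of TE transcription and the deposition of histone marks of heterochromatin. Maelstrom (Mael) is a piRNA pathway protein needed for that silencing, alongside the zinc finger protein CG3893 and the heterochromatin protein HP1a, while the helicase Armi acts earlier, in making the piRNAs. Many of the TEs controlled in these cells are LTR retrotransposons of the Ty3/gypsy type, some of them errantiviruses, which carry an envelope gene.

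With 1 library per group no test was possible, and no p-value is given. Changes are log2((Mael + 1)/(control + 1)) of RPKM, which understates the change of low features, and a size limit of 2-fold on that scale stands in place of a threshold. Folds are plain ratios of RPKM. How far 2 cultures with the same siRNA differ is unknown. The Mael library held 25393324 reads and the control 33872728, as recovered from the deposited values, and the other 4 held 18584526 to 36729626. For TE families the recovered reads also gave 95% exact binomial (Clopper-Pearson) intervals of the ratio, printed in parentheses, which cover counting error only. For genes no read numbers could be recovered.

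The label of the Mael library fitted its target. The RNA of mael (build dm3, chromosome 3L, 22717333 to 22719334) fell from 87.2 RPKM to 9.01 RPKM in the Mael library, against 64.4 to 83.0 RPKM in the other 4. It was the one gene at least 2-fold below every other library in the Mael library, 0.0133% of the 7546 genes that are not short RNA genes. The genes of the other factors were near control: piwi went from 576 to 600 RPKM (599.9 before rounding), armi from 469 to 489 RPKM, CG3893 from 23.5 to 20.4 RPKM and the HP1a gene from 397 to 319 RPKM.

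The cell type markers mostly matched OSC in both libraries. Of 9 follicle cell markers 8 were at 1 RPKM or more in each, with a summed level of 1166 RPKM in the control and 1148 RPKM in Mael. Of 9 germline markers 4 and 5 reached 1 RPKM, with sums of 49.99 and 45.5 RPKM. Of 6 hemocyte markers 2 did in both (18.3 and 21.3 RPKM summed), of 4 fat body markers 0 (0.196 and 0.221 RPKM), of 4 neuron markers 1 (10.4 and 12.3 RPKM) and of 5 muscle markers 1 (6.31 and 7.17 RPKM). Fbp1 and Fbp2 of the fat body, Syt1 of neurons and nimC1 and Hml of hemocytes were under 0.05 RPKM in both. Other markers of these lists were expressed in control and Mael. They were elav of neurons (10.1 and 11.7 RPKM), srp (8.83 and 11.4) and Pxn (9.36 and 9.68) of hemocytes, and Mhc of muscle (5.44 and 6.00). The germline gene del (38.0 and 34.7 RPKM) gave most of the germline sum. The follicle cell marker cas was at 0.458 and 0.374 RPKM. In RNA from a whole culture, fewer cells of a kind and less RNA per cell cannot be told apart.

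Most genes differed little, and those past the limit were mainly higher. Of 7674 genes, 198 (2.58%) were past 2-fold higher in Mael and 64 (0.834%) past 2-fold lower, and the median change was -0.06. Among 128 short RNA genes, those with a locus under 300 bases or a name of a small RNA class, 29 were higher and 29 lower (22.7% each). They are left out of the counts over single genes, of genes apart and of neighbours that follow, while the gene lists keep the 2 they hold, RpS28a and CG40733, and list medians are set beside all 7674 genes. Of the other 7546 genes, 169 (2.24%) were higher and 35 (0.464%) lower.

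Many of the higher genes were close to silent in the control. Of the 169, 78 were under 1 RPKM there, and 86 reached at least 10 RPKM in Mael, but only 18 genes did both. A gene under 1 RPKM in the control could enter only through the Mael library, and 78 of the 120 such genes were past the limit, which the filter favours. Of the 7426 genes with at least 1 RPKM in the control, 91 were higher and 35 lower. The control library was at least 2-fold below each of the other 5 RNA libraries for 24 of the 169 genes, so a low value of that single library would place them here whichever knock-down was compared. The Mael library was the highest of the 6 for 98 of the 169, which its use in choosing them favours. At the limit itself, CG11870 (12.7 to 26.4 RPKM, change 1.00) lay just inside and squ (14.2 to 29.3 RPKM, change 0.99) just outside.

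**Figure D1:**
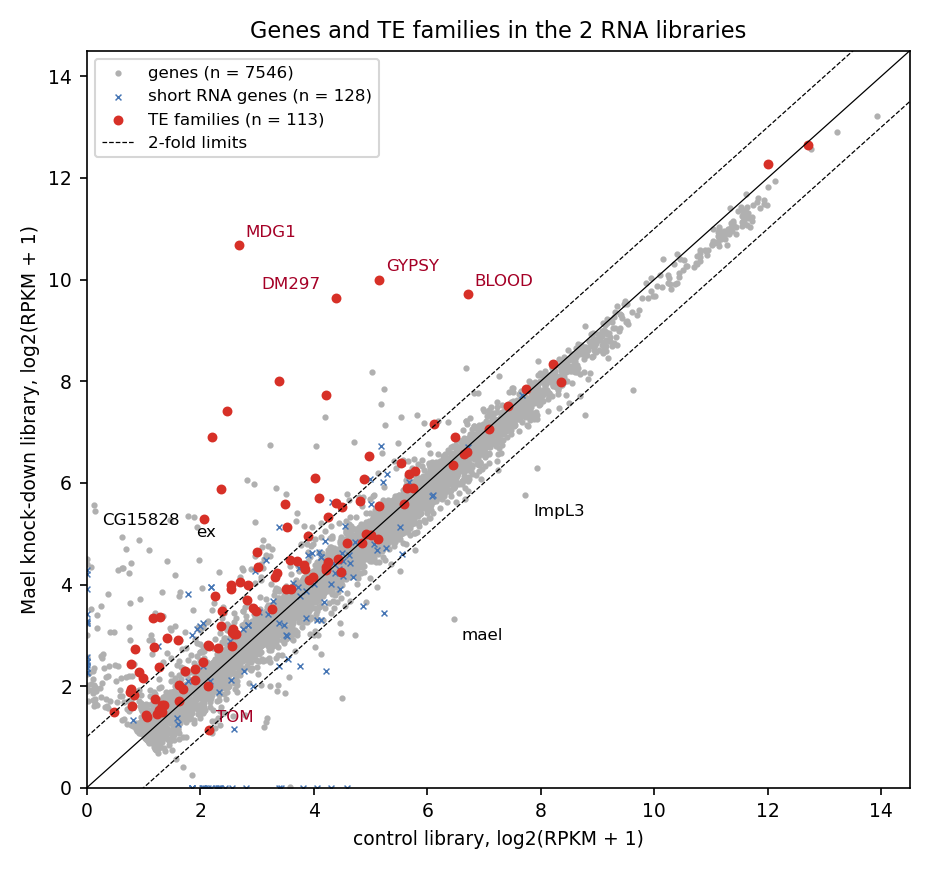
Level of each gene and TE family in the Mael library against the control library, both as log2(RPKM + 1), for features averaging at least 1 RPKM; the solid line marks equal levels and dashed lines mark 2-fold. TE families such as MDG1, DM297 and GYPSY lie far above the limit, and mael lies below it.

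The highest changes belonged mostly to genes without a given name. CG15828 (2L, 9634200 to 9656026) had 0.0890 RPKM in control cells and 46.6 in Mael, a change of 5.45. In the other libraries it was at 3.24 RPKM in Piwi, 0.421 in Armi, 7.89 in CG3893 and 2.72 in HP1a. CG14686 (3R, 6605296 to 6606547) went from 0.107 to 42.7 RPKM, with 12.4 RPKM in CG3893 the next highest. Both were highest in Mael and lowest in the control. CG15278 was listed at 0 in the control and at 21.8 RPKM in Mael, and CG42335 went from 0.0591 to 19.2 RPKM. Ir68a and Ir7g, of the ionotropic receptor family of sensory neurons, went from 0.535 to 29.5 RPKM and from 0.90 to 28.2 RPKM. HP1a came close to Mael for Ir7g, at 26.5 RPKM. The rest of the 12 highest genes, among those averaging 5 RPKM or more, were CG12016, fau, CG15209, CG12814, CG34411 and smp-30, with changes from 3.68 to 4.40. Of these CG12016, CG15209, CG34411 and smp-30 overlap other genes, and how shared reads were split is not given.

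A smaller group stood apart from all other libraries. In the Mael library 29 genes (0.384% of 7546) were at least 2-fold above each of the other 5. The same count was 76 (1.00% of 7592) in HP1a, 1 each in Piwi and Armi (0.0134% each) and 0 in CG3893 and the control. Most of the 29 were under 1 RPKM in the control. Such genes passed the filter through the Mael library alone, which favours their standing apart. The widest margin belonged to CG15828. The gene smp-30 (10571622 to 10573043 on 3R), of the regucalcin family of calcium-binding proteins, was at 0.552 RPKM in the control, 18.9 in Mael, 0.768 in Piwi, 0.895 in Armi, 1.79 in CG3893 and 2.79 in HP1a. It overlaps CG3563, at 38.9 RPKM in the control, 27.7 in Mael and 32.5 to 38.3 in the other knock-downs. How shared reads were split is not given, so the level of smp-30 is uncertain. The gene fau (3R, 6593887 to 6603090) was at 0.611 RPKM in the control, 25.1 in Mael and at most 4.73 elsewhere, in CG3893. CG2107 was expressed in every library, at 15.4 RPKM in the control, 105 in Mael, 19.5 in Piwi, 14.4 in Armi, 31.9 in CG3893 and 18.3 in HP1a. CG2082 was likewise at 25.3 to 40.4 RPKM in the other 5 and 110.4 in Mael, and Rfx, which encodes a transcription factor, at 3.04 to 3.71 RPKM against 8.72. The cuticle protein gene Cpr67Fb was at 6.11 RPKM in the control, 65.9 in Mael and up to 29.7 in HP1a. CG2082, Rfx and Cpr67Fb were picked from the 29 after their values were seen.

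**Figure D2:**
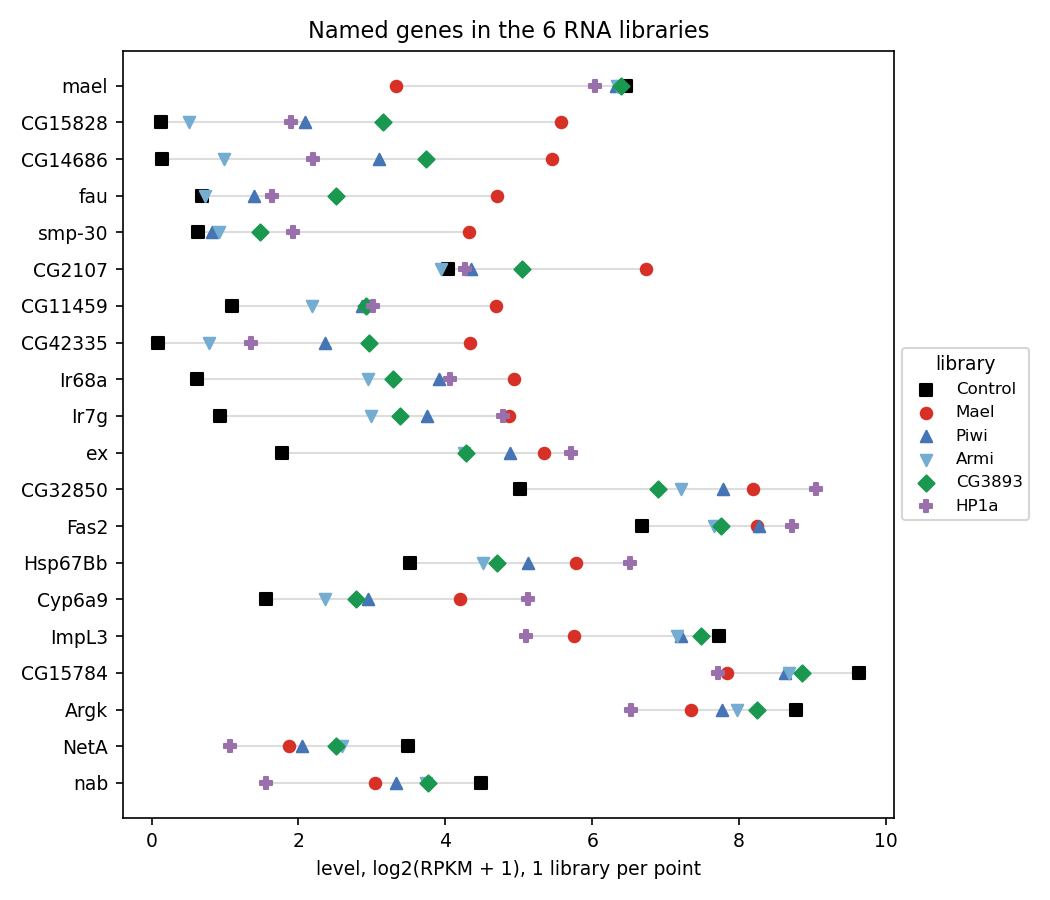
Level of 20 named genes in each of the 6 RNA libraries as log2(RPKM + 1), 1 library per point. CG15828, CG14686, fau, smp-30, CG2107 and CG11459 are highest in Mael with a gap to the other 5, whereas ex, CG32850, Fas2 and Cyp6a9 are higher still in HP1a.

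Genes past the limit often lay beside one another. Of the 169 higher genes, 66 (39.1%) had another of them within 20 kb, against 8.64% of all 7546 genes with one of the 169 that close. Without overlapping loci the shares were 36.7% and 8.24%. Of the 35 lower genes 4 (11.4%) had another lower gene that close, against 2.23% of all. Many of the 66 were under 1 RPKM in the control and entered through the Mael library alone, while 120 of all 7546 genes did so. The shares are not corrected for this. The 66 formed 26 runs, and in the longest all but Ccn were under 1 RPKM in the control. The longest, of 7 genes on 3L, held Ccn (3.72 to 11.4 RPKM), CG7460, CG6034 (0.689 to 6.51 RPKM), Adgf-A (0.669 to 7.91 RPKM), Msi, CG32182 and CG32181, several of which overlap, and Ccn, at 4.23 to 5.71 RPKM in the 4 other knock-downs, was highest in Mael. On 3R fau lies beside CG14686 and CG42633, and smp-30 beside CG7362 (0.141 to 9.59 RPKM). A run on 3L held the small heat shock genes Hsp67Bc, Hsp67Bb, Hsp67Ba and Hsp23. Others held the ionotropic receptor genes Ir7f and Ir7g, the P450 genes Cyp6a19, Cyp6a9 and Cyp6a21, and the growth factor genes Idgf2 (34.0 to 71.7 RPKM) and Idgf3 (8.62 to 25.1 RPKM). Neighbouring copies of 1 family can share reads, so members of such runs are not independent. The runs were examined after the values were seen.

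Fewer genes were past the limit lower, and the 12 lowest averaging 5 RPKM or more are led by overlapping loci, mael and a metabolic enzyme gene. ImpL3 (3L, 6252591 to 6255793), which encodes lactate dehydrogenase, went from 211 RPKM in the control to 53.1 in Mael, with 147 in Piwi, 142 in Armi, 178 in CG3893 and 33.3 in HP1a. CG15784 went from 793 to 227 RPKM and Argk, the arginine kinase gene, from 438.5 to 161 RPKM. The control held the highest of the 6 values and HP1a the lowest for all 3. NetA, encoding a secreted netrin guidance factor, went from 10.2 to 2.66 RPKM, nab, a transcriptional cofactor gene, from 21.3 to 7.27 RPKM, and Buffy, of the Bcl-2 family, from 9.17 to 2.75 RPKM. CG6579 (25.4 to 7.00 RPKM, 6.996 before rounding) and fok (16.5 to 5.20 RPKM) were also among the 12 lowest. CG10576, at 243 and 77.7 RPKM, holds snoRNA genes in its locus, and reads of these may enter its value.

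For 2 loci a lower gene overlapped a higher one. CG42303 went from 11.0 to 0.0101 RPKM while CG42304, which overlaps it, went from 0.0514 to 10.4 RPKM, and their sum was 11.1 and 10.4 RPKM. CG42456 went from 21.6 to 2.39 RPKM while the overlapping CG12016 went from nearly 0 to 20.1 RPKM, with sums of 21.6 and 22.5 RPKM. The sums moved little, and the treatment of shared reads is not given, so these 4 changes are uncertain.

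The genes of the silencing pathways were near their control level. Of 17 genes of nuclear piRNA silencing 1, mael itself, was past the limit, with a list median of 0.01 against -0.06 for all genes. Of the others, Nxt1, an mRNA export cofactor gene, was lowest (178 to 130.5 RPKM), followed by the HP1a gene, and wde was highest (8.92 to 10.8 RPKM). Of 19 genes of cytoplasmic piRNA biogenesis 0 were past the limit (median -0.01), with the piRNA nuclease gene zuc lowest, at 19.7 and 12.9 RPKM, and the helicase gene spn-E highest, at 127 and 168 RPKM. Of 19 heterochromatin factor genes 0 were past it (median -0.03), among them Su(var)3-9, which encodes a histone H3 methyltransferase, at 258 and 208 RPKM. Of 16 siRNA and miRNA genes 0 were past it (median -0.03). Over the 7546 genes 2.24% were higher and 0.464% lower, and at those shares lists this small would hold few genes past the limit.

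Cell identity genes also moved little as lists. Of 14 germline genes 0 were past the limit (median 0.06). Of 19 follicle and somatic gonad genes Fas2, a cell adhesion gene, was higher, from 101 to 303 RPKM, and ImpL2, which encodes a secreted insulin-binding protein, was lower, from 9.30 to 3.04 RPKM (median 0.03). Fas2 was at 309 RPKM in Piwi and 421.5 in HP1a. None of 6 hemocyte and fat body genes (median 0.06), 3 neuron and muscle genes (median 0.12), 8 antimicrobial and immune genes (median -0.04), 18 actin and cytoskeleton genes (median -0.19) or 14 ecdysone genes (median 0.06) was past the limit. The collagen IV genes Cg25C (11.7 to 5.50 RPKM) and vkg (4.12 to 1.87 RPKM) were the lowest of their list. Their changes of -0.97 and -0.83 were within the limit, though their plain ratios were 0.468 and 0.454. Of 26 matrix and adhesion genes, Fas2 alone was past the limit (median 0.03). Over the 7546 genes 2.24% were higher and 0.464% lower, so few genes past the limit would be found in any list of these sizes.

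Of 26 heat shock and stress genes 6 were higher and 0 lower, where 2.24% of all 7546 genes were higher and 0.464% lower. The median was 0.35 against -0.06. The 6 lie in 2 clusters of neighbours, Hsp67Bc, Hsp67Bb, Hsp67Ba and Hsp23 on 3L and Hsp70Aa and Hsp70Ab on 3R. Hsp67Bc, at 0.737 RPKM in the control, entered through the Mael library alone. Hsp67Bb went from 10.5 to 53.8 RPKM and Hsp23 from 72.3 to 148 RPKM, while HP1a stood above Mael for both, at 90.2 and 438 RPKM. Hsp70Aa and Hsp70Ab, near-identical copies whose reads cannot be assigned with certainty, went from 7.44 to 20.3 and from 7.70 to 21.7 RPKM, against 181 and 190.4 RPKM in HP1a. Of 28 apoptosis and DNA damage genes W, the cell death gene hid, was higher (0.447 to 2.21 RPKM) and Buffy lower (median -0.07). W likewise entered through the Mael library alone. Of 35 S and M phase genes 0 were past the limit (median -0.04).

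Genes of translation and sugar metabolism lay lower as lists than all genes together, mostly within the limit. Of 82 genes of cytoplasmic ribosomal proteins 80 had a change below 0, with a median of -0.35 and 0 past 2-fold. For all genes 4633 of 7674 were below 0. RpS25 went from 3313 to 2084 RPKM and RpL32 from 3368 to 2261 RPKM, and both were lowest in Mael among the 6 libraries. All 14 glycolysis genes were below 0 (median -0.22), ImpL3 past the limit, then Hex-A, a hexokinase gene (96.7 to 64.6 RPKM), and Tpi (117 to 81.3 RPKM). Of 32 proteasome genes 28 were below 0 (median -0.10). Of the 7546 genes 0.464% were past 2-fold lower. The median control level was 2534 RPKM for the ribosomal protein list, 122 RPKM for glycolysis and 253 RPKM for the proteasome. Among the 965 genes at 100 RPKM or more in the control the median change was -0.18. The glycolysis median lay near that value, the proteasome median above it and the ribosomal protein median below it. The summed RPKM of all genes was 653145 in the control and 567622 in Mael, and TE families took a larger share of reads in Mael. Their part in the change of these lists was not tested.

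Signalling and receptor lists differed in how many members passed. Of 21 Hippo pathway genes ex, encoding an upstream regulator of growth (2L, 431252 to 448701), went from 2.43 to 39.6 RPKM (median 0.02), and the rest stayed under the limit. Of 12 JAK/STAT genes 0 were past it (median -0.01), with Stat92E, the transcription factor of the pathway, at 153 and 275 RPKM. Of 22 Notch and EGFR genes HLHmbeta and HLHmgamma, of the Enhancer of split complex of Notch targets, were higher, while HLHm3, of the same complex, went from 101 to 50.3 RPKM, just under the limit (median -0.06). Of 11 ionotropic receptor genes 4 were higher, Ir68a, Ir7g, Ir7f (0.192 to 11.0 RPKM) and Ir10a (0.392 to 7.40 RPKM), and 0 lower. Their median was 0.27. Each of the 4 was under 1 RPKM in the control and entered through the Mael library alone, and of all 120 such genes 78 were past the limit, against 2.24% of all 7546. Of 32 P450 genes 4 were higher, among them Cyp6a9 (1.94 to 17.3 RPKM), and Cyp6d5 was lower (7.95 to 1.46 RPKM), with a median of 0.08, where 2.24% of all genes were higher and 0.464% lower. Cyp6a9, Cyp6a19 and Cyp6a21, 3 of the 4, are neighbours, and the overlap of Cyp6a9 with Cyp6a19 makes the split between those copies uncertain. Cyp6a19 and Cyp6a21, at 0.233 and 0.298 RPKM in the control, also entered through the Mael library alone.

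By position, the small heterochromatin-rich chromosome 4 lay slightly higher. Of its 62 genes 50 had a change above 0, with a median of 0.18, against 3041 of all 7674 genes. CG32850 (31.5 to 290.3 RPKM) and the kinesin gene Kif3C (35.6 to 94.5 RPKM) were past the limit. They made 3.23% of the 62, near the 2.24% of the 7546 genes that were higher. On the other main arms the share ran from 1.25% (2R) to 2.86% (3L). Among 48 genes on heterochromatic or unplaced arms (median 0.08) the one past the limit was CG40733, where 2.58% of all 7674 genes were higher. It is a short RNA gene by its locus, listed at 0 in the control and at 3.82 RPKM in Mael.

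**Figure D3:**
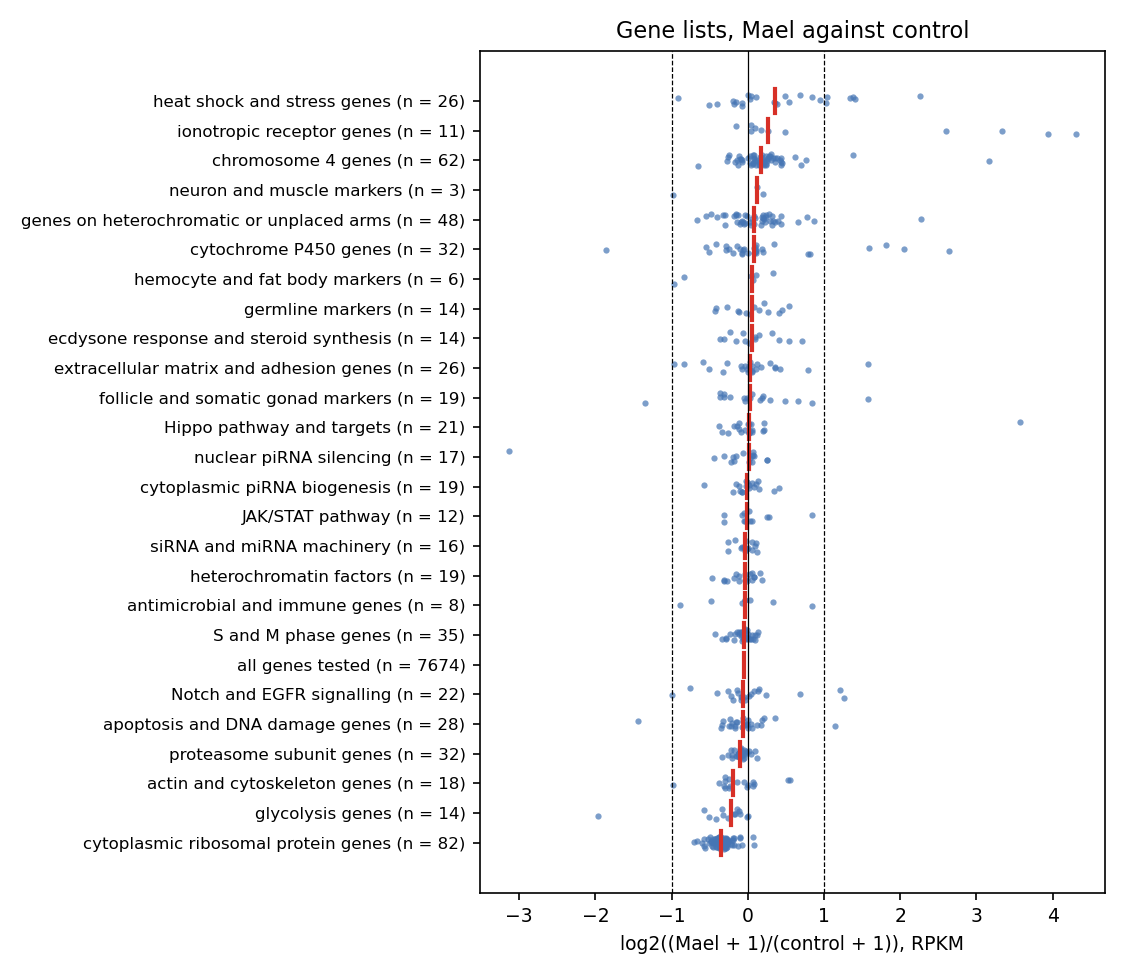
Change of each gene by list as log2((Mael + 1)/(control + 1)) of RPKM, 1 point per gene averaging at least 1 RPKM; red bars are list medians, dashed lines mark 2-fold, and for all 7674 genes only the median, -0.06, is drawn. Ribosomal protein genes lie lowest by median (-0.35) and heat shock and stress genes highest (0.35).

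TE families differed more widely than genes. Their share of all reads was 7.49% in the control and 11.7% in Mael, and without COPIA and Gypsy1, the 2 most abundant entries, 1.32% and 5.05%. Of 113 families, 42 (37.2%) were past 2-fold higher, 1 (0.885%) was past 2-fold lower, and the median change was 0.56, where that of genes was -0.06. Past 4-fold were 14 (12.4%), past 8-fold 9 (7.96%) and past 16-fold 6 (5.31%). Of the 104 families with at least 1 RPKM in the control 35 were higher. The control was at least 2-fold below every other library for 11 of the 42. At the limit, HELENA (0.403 to 1.82 RPKM, change 1.01) lay just inside, and GYPSY5 (0.774 to 2.54 RPKM, a plain ratio of 3.28) just outside.

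The 6 families past 16-fold were LTR retrotransposons. MDG1 had 5.45 RPKM in control cells and 1628 in Mael, from 1300 and 290983 reads, with 853 RPKM in Piwi, 116 in Armi, 742 in CG3893 and 459 in HP1a. DM297 went from 20.1 to 797 RPKM, 39.6-fold (38.5 to 40.8), and DM412 from 4.55 to 169 RPKM, 37.2-fold (34.98 to 39.6). DM412 and its fragment entry DM412B (4.19 to 57.9 RPKM) were the 2 entries (1.77%) at least 2-fold above every other library in Mael. The same count was 25 (20.5% of 122) in HP1a and 0 in Piwi, Armi, CG3893 and the control. Of the 42 higher families the Mael library was the highest of the 6 for 15 and second for 25, which its use in choosing them favours. For DM412 the next highest was HP1a, at 67.2 RPKM, and Piwi followed at 65.3 RPKM. GYPSY, the errantivirus that names the group, was at 34.7 RPKM in the control, 1023 in Mael, 1125 in Piwi, 521 in Armi, 465 in CG3893 and 976 in HP1a. Mael, Piwi and HP1a lay close together for it, above Armi and CG3893. TABOR went from 3.65 to 118 RPKM and QUASIMODO from 9.41 to 255 RPKM, with QUASIMODO at 1394 RPKM in HP1a.

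**Figure D4:**
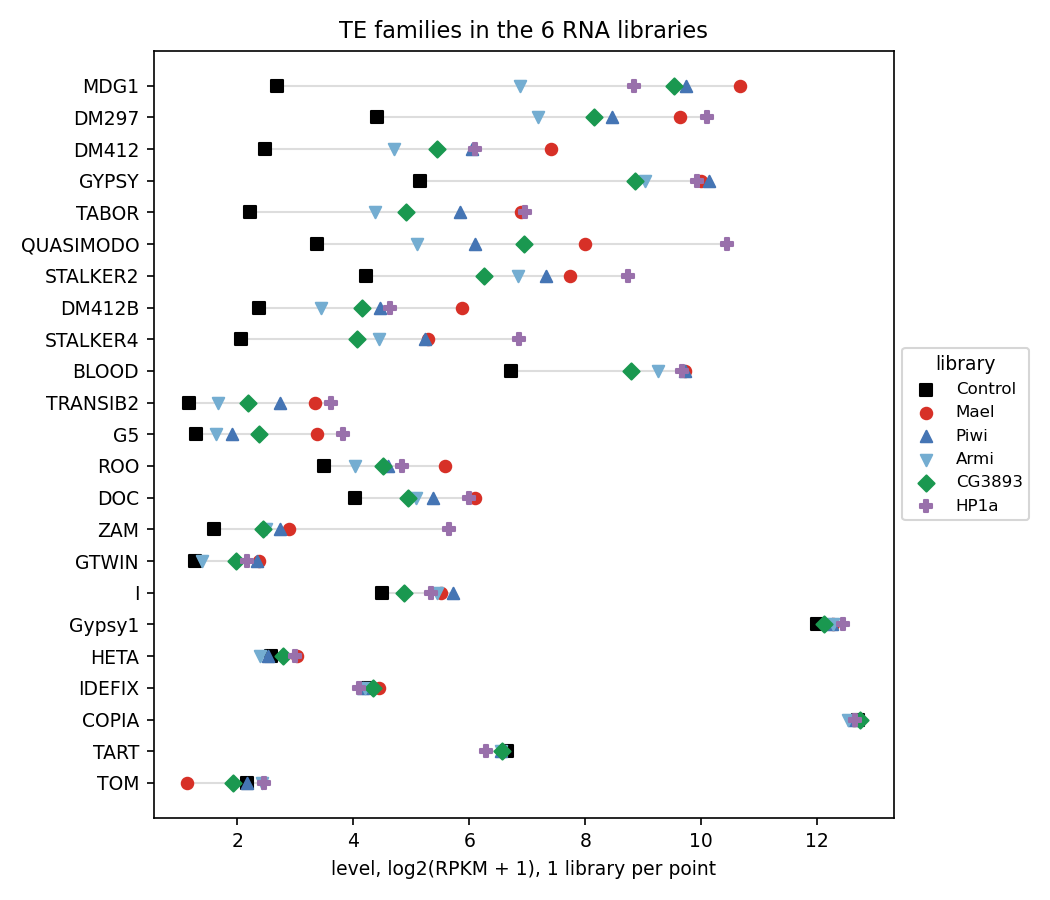
Level of 23 TE families in each of the 6 RNA libraries as log2(RPKM + 1), 1 library per point. MDG1, DM412 and DM412B are highest in Mael, QUASIMODO, STALKER4 and ZAM are highest in HP1a, and COPIA, TART and IDEFIX lie close together in all 6.

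By class, Ty3/gypsy-type elements of both kinds gave most of the added TE RNA. Of all 113 families 37.2% were higher and 0.885% lower, with a median change of 0.56, and both kinds had a share higher near this. Of 20 errantivirus-type families 9 were higher and 1 lower, with a median change of 0.94. They made up 34.1% of the added TE reads, the summed gains of all entries with a higher share of their library in Mael. GTWIN (1.41 to 4.17 RPKM), ZAM (2.04 to 6.46 RPKM) and DM176 (18.1 to 39.0 RPKM) were past the limit by a smaller margin, and IDEFIX, at 17.98 and 20.7 RPKM, was not. Of 24 other Ty3/gypsy-type families 11 were higher (median 0.72), with 60.6% of the added reads, among them STALKER2 (17.61 to 212 RPKM), STALKER4 (3.20 to 38.0 RPKM), BLOOD (104 to 840.2 RPKM) and MDG3 (30.5 to 91.0 RPKM). Of the added reads, MDG1 alone gave 26.2%, GYPSY 15.9%, Gypsy1 13.7%, BLOOD 11.8% and DM297 11.7%. Gypsy1, though at a ratio of 1.20 (4104 to 4938 RPKM), counts here because it is so abundant.

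Non-LTR elements, which move through an RNA copied at the insertion site, had a median change of 0.82, against 0.56 for all families, and gave 2.73% of the added reads. All 26 were above 0, where 100 of all 113 were, and 11 were past the limit, a share near the 37.2% of all families. None was past 16-fold. G5 went from 1.44 to 9.33 RPKM, 6.47-fold (5.62 to 7.48), DOC from 15.3 to 67.2 RPKM and I from 21.6 to 44.8 RPKM, 2.08-fold (1.997 to 2.16). DOC was at 40.6 RPKM in Piwi, 32.7 in Armi, 29.6 in CG3893 and 62.7 in HP1a, and I was higher in Piwi, at 51.8 RPKM, than in Mael. Of 7 Bel/Pao-type families ROO (10.3 to 46.6 RPKM) and BATUMI (7.13 to 19.2 RPKM) were higher, with a class median of 0.42. For ROO the Mael library held the highest of the 6 levels, HP1a following at 27.7 RPKM.

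DNA transposons and helitrons had 6 of 20 past the limit and a median of 0.53, near the 37.2% and 0.56 of all families. TRANSIB2 went from 1.26 to 9.14 RPKM, 7.28-fold (5.99 to 8.91), and PROTOP_A from 68.4 to 142 RPKM, 2.07-fold (1.97 to 2.18). Of 5 Copia-type entries COPIA2LT, a short entry, was past it (7.01 to 24.1 RPKM, from 47 and 121 reads), with a class median of 0.44. COPIA2, at 6.92 and 10.1 RPKM, and COPIA, at 6658 and 6383 RPKM, were not. None of the 4 telomeric elements, which maintain chromosome ends, was past it (median 0.06): HETA was at 5.01 and 7.12 RPKM and TART at 98.9 and 93.5 RPKM. In no class were 7 entries, 2 of them higher, TLD2 and NTS (median 0.65). TOM was lower, at 3.47 and 1.20 RPKM, 0.346-fold (0.295 to 0.405), against 2.81 to 4.51 RPKM in the other knock-downs. The entry DMTOM1, of like name and 410 bases long, was not lower. It was at 52.8 RPKM in the control and 59.0 in Mael, 1.12-fold (1.002 to 1.25).

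RNA polymerase II (Pol II) occupancy of the same families was measured by chromatin immunoprecipitation, in RPM (reads per 1e+06 reads of the library), with 3313513 reads for Mael and 4114686 for control. Of 141 entries averaging 1 RPM or more, 12 (8.51%) were past 1.5-fold higher and 5 (3.55%) lower. Of the 40 families past 2-fold in RNA and measured for Pol II, 9 were higher and 4 lower, with a median change of 0.09. Of the 70 not past 2-fold in RNA, 1 was higher and 0 lower, with a median of 0.03. MDG1 went from 588 to 4179 RPM, GYPSY from 3793 to 10392 RPM, and STALKER2 from 158 to 470.5 RPM, and in each both RNA and Pol II were past their limits. DM297, DM412, TABOR, QUASIMODO, DM412B and BLOOD were the other 6. DM412B, the fragment entry of DM412, rested on 15 Pol II reads in the control and 38 in Mael.

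Others had more RNA with little change in Pol II. STALKER4, whose RNA was 11.9-fold higher, was at 520.1 and 531 RPM, 1.02-fold (0.957 to 1.09). ROO was at 2261 and 1893 RPM, 0.837-fold (0.811 to 0.864), so its Pol II was slightly lower while its RNA was higher. DOC was at 1521 and 1658 RPM, 1.09-fold (1.05 to 1.13). TRANSIB2 was at 70.0 and 59.5 RPM, 0.849-fold (0.705 to 1.02), with an interval that reached 1. By class, the median Pol II change of the families higher in RNA was 0.51 for 9 errantivirus-type, 0.23 for 11 other Ty3/gypsy-type, 0.10 for 11 non-LTR and -0.25 for 6 DNA elements. The 4 lower were POGON1, PROTOP_A, GYPSY11 and GYPSY12A, at 9.48 to 3.62, 43.5 to 23.8, 17.7 to 11.2 and 10.2 to 6.34 RPM. They rested on 12 to 179 reads a library, and of their intervals only that of GYPSY12A (0.349 to 1.07) reached 1. No input library was used, so Pol II reads that are background on genomic copies were not separated.

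**Figure D5:**
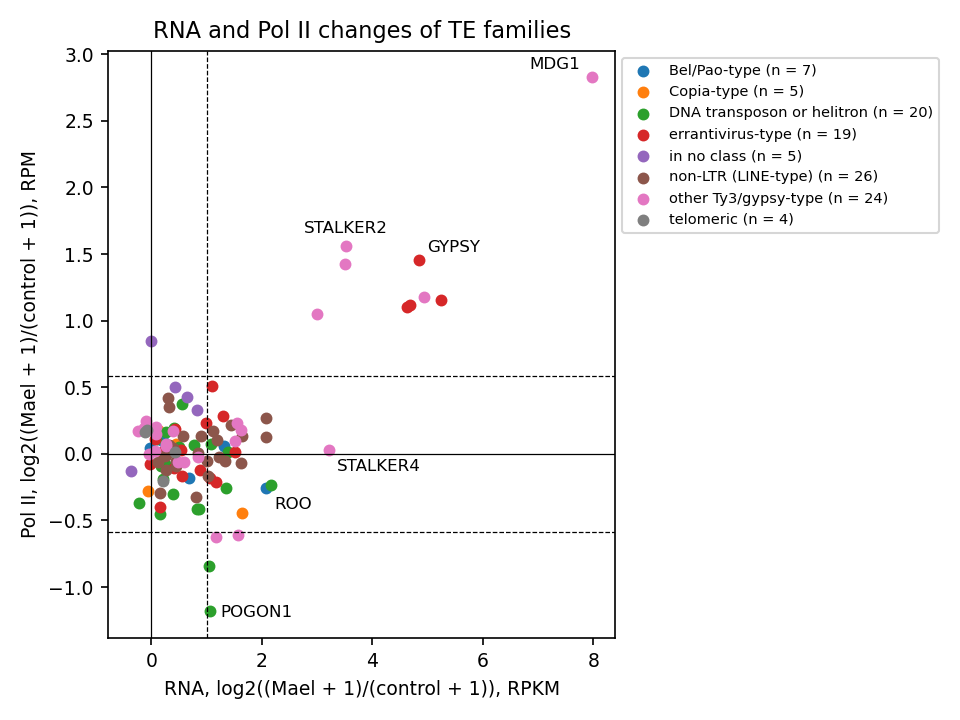
Change of Pol II occupancy (RPM) against change of RNA (RPKM) for TE families averaging at least 1 in both, each as log2((Mael + 1)/(control + 1)), coloured by class; dashed lines mark 2-fold in RNA and 1.5-fold in Pol II. MDG1 is highest on both axes, while STALKER4 and ROO lie past the RNA limit and within the Pol II limits.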

How the data were processed

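RNA values are RPKM as deposited by the authors, per the file headers, for genes and TE entries; Pol II values are RPM as deposited, per the file headers. Build dm3, Cufflinks 2.0.2, TopHat2 2.0.7, Bowtie2 2.0.0 and cutadapt are listed in the submitters' processing notes. Which TE sequences were used, whether strand was counted and how multiply matching reads were assigned is not given in the sources used here. Whether locus starts count from 0 or 1 is not stated.

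Of 14145 gene rows 161 repeated a name and were summed. Changes use a pseudocount of 1 and a mean of at least 1, in the file's unit. Library totals and TE reads were recovered as the whole numbers that fit the ratios of deposited values, for 152 of 152 entries above 0, and the search was tested on simulated data. Python 3.11.15, pandas 2.3.3, numpy 2.4.6 and scipy 1.17.1 were used. Named genes are the targeted genes, the 12 at each end past 2-fold that average 5 RPKM or more, the 6 farthest above and below every other library, and up to 4 per list. Members, lists and limits were chosen with earlier results of these data known. After the names in the files were seen, a repeated entry and an empty gene list were dropped, 2 TE entries changed class and others were added to classes. No sequence is printed, as none of the genes or families was in the sources used here.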

Additional observations from a re-analysis of the deposited data

How the results depend on the processing

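No paired analysis was possible because each group holds 1 library. With a pseudocount of 5 RPKM 92 genes were higher and 24 lower, 22 TE families were higher and 0 lower, 10 genes stood above every other library in Mael, and the TE median was 0.37. With a mean of at least 10 RPKM 73 genes were higher and 21 lower, 25 families higher and 0 lower, and 8 genes stood apart. Without short RNA genes 35 were lower, and with at least 1 RPKM in the control, chosen after seeing the data, 105 genes were higher, short RNA genes included (91 without them). Centred on genes, 0 families were lower. The TE median was 0.66 with a pseudocount of 0.1 RPKM and 0.26 without a filter, where 11 lists, not 19, had a median above that of all genes. With a pseudocount of 10 RPM 1 family higher in RNA was lower in Pol II. The cause of these differences was not tested. No named gene or family past 2-fold changed direction under any alternative run. Of named families ZAM, DM176, GTWIN, I and TOM fell within 2-fold at a pseudocount of 5 RPKM, and TOM also when centred, as did 10 of 117 named genes at a pseudocount of 5 RPKM.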
